A study of Mus musculus with 9 samples.

Results

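The ATP-binding cassette (ABC) transporters and the organic anion transporting polypeptides (OATP, mouse gene symbols beginning with Slco) move lipids, bile constituents, conjugates and drugs across membranes. All genes of the deposited expression table whose symbol begins with Abc followed by a subfamily letter from a to g and a digit, or with Slco and a digit, were taken, whatever their level. There were 61 of them among 32761 genes, 49 ABC genes and 12 Slco genes. They were followed in 9 libraries of mouse liver tumours grown in place from Hepa1-6-luc, a mouse hepatoma line that carries luciferase. The comparison group is labelled Control, and treated tumours carry the label Co+Len@OVA+anti-PD1 or the label Lenvatinib+anti-PD1, with 3 libraries in each group. Lenvatinib is an inhibitor of receptor tyrosine kinases used against hepatocellular carcinoma, and anti-PD1 is an antibody against the checkpoint receptor PD1. Mice of the Lenvatinib+anti-PD1 group, called the lenvatinib group here, received the free drug by tail vein every 3 days at a concentration matched to that of the nanoclusters. Mice of the Co+Len@OVA+anti-PD1 group, called the nanocluster group, received drug-loaded nanoclusters at 2 mg/mL on the same schedule. Both groups also received 50 µg of anti-PD1 per injection every 4 days, and tumours were taken on day 14. The labels do not spell out Co, do not say what Control mice were given, and do not name the strain or age of the mice. Both treated groups carried antibody and lenvatinib, so the antibody and the drug cannot be told apart in these libraries. The p-values rest on the spread between libraries within a group, pooled over all 3 groups, so the third group bears on each comparison. The 3 libraries of a group are not described as anything more than separate samples. No label says whether they came from separate tumours, and if library 3 of a group is not independent of the other 2, the errors and p-values over 3 libraries are too small.

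ABC proteins use ATP to push substrates out of a cell or into an organelle, and OATP carriers bring organic anions such as bile acids, bilirubin and many drugs into cells. In the liver the 2 families work in series: OATP carriers stand on the blood-facing sinusoidal membrane of hepatocytes, and ABC exporters stand on the canalicular membrane that faces bile. Other ABC branches load cholesterol onto lipoproteins, serve mitochondria and peroxisomes, or act in translation without crossing a membrane.

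Levels were FPKM, fragments scaled to transcript length and library size, a per-length scale on which genes can be compared. Total FPKM ran from 331611 to 372794 per library, and 23575 to 26298 genes had a value above 0. In each group the third library lay between the other 2 for most of the genes that differed widely between those 2. Among genes more than 4-fold apart between libraries 1 and 2, it lay between them for 94.9% of 350 in Control, 97.5% of 284 in the lenvatinib group and 97.5% of 278 in the nanocluster group. Of the 46 transporter genes tested, the third library lay between the others for 35, 20 and 32 in those groups, so the fits were also run with libraries 1 and 2 alone. Summed markers of other tissues set several libraries apart. Control library 1 had the lowest macrophage sum of its group at 341.5 FPKM, against 1404 and 1068. Striated muscle markers summed to 4802 and 1908 FPKM in lenvatinib libraries 2 and 3, and to between 1.51 and 50.04 FPKM in the other 7. Neural markers summed to 102.4 and 53.7 FPKM in nanocluster libraries 1 and 3, and to at most 5.65 FPKM in the others. The hepatoma and fetal liver markers Afp, Gpc3, H19, Igf2, Peg3 and Dlk1 summed to between 373 and 443 FPKM in Control and between 381 and 437 FPKM with lenvatinib. With nanocluster they summed to between 238 and 249 FPKM, a mean sum 1.67-fold lower than in Control. The sum rests on few of the 6 genes: the median gene stood at 0.875 FPKM in Control, 2.12 with lenvatinib and 1.86 with nanocluster.

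Of the 61 genes, 46 reached a mean of 0.5 FPKM over the 9 libraries and were tested with limma on log2(FPKM + 0.5), 39 ABC and 7 Slco genes. The other 15 stayed below it, and the highest value any of them reached in a library was 0.861 FPKM. Adjusted two-sided p-values (Benjamini-Hochberg over 15353 genes) below 0.05 counted as calls, and 30 of the 46 were called in at least 1 comparison. Against Control, the nanocluster group had 11 transporter genes higher and 9 lower, 23.9% and 19.6% of those tested, beside 20.9% and 12.7% of all genes. The lenvatinib group had 11 higher and 4 lower than Control, 23.9% and 8.70%, beside 13.8% and 9.87% of all genes. Against the lenvatinib group, the nanocluster group had 8 higher and 13 lower, 17.4% and 28.3%, beside 17.3% and 12.0% of all genes. The median log2 difference of the transporter genes was 0.15, 0.12 and 0.11 in those comparisons, and that of all genes was 0.13, 0.05 and 0.07. All 3 comparisons share libraries, so their counts are not independent of each other. Values that did not overlap between groups were found for 13 transporter genes higher and 9 lower with nanocluster than in Control (32.4% and 17.3% of all genes), 18 and 6 with lenvatinib (26.1% and 17.4%), and 15 and 16 between the treated groups (34.3% and 20.4%).

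The counts moved with the scaling and the libraries used. Median-of-ratios scaling shifted the median of all genes in the nanocluster against Control comparison by -0.13 on the log2 scale, and upper quartile scaling by -0.19. Under either of them 6 transporter genes were higher and 13 lower in that comparison, beside 13.4% and 18.3% of all genes under the first and 10.7% and 19.4% under the second. With lenvatinib against Control, 9 were higher and 6 lower under the first, beside 11.9% and 12.0% of all genes, and 8 and 6 under the second, beside 8.4% and 13.6%. With libraries 1 and 2 alone, 0 transporter genes were called higher and 1 lower in the nanocluster group against Control, beside 0.111% and 0.41% of all genes. In that comparison 13 (28.3%) had an unadjusted limma p below 0.05, beside 22.0% of all genes. In that fit 1 was higher and 0 lower in the lenvatinib group against Control, beside 0.215% and 0.13%. An unadjusted limma p below 0.05 was found there for 11 (23.9%), beside 16.7% of all genes. Between the treated groups 0 were higher and 6 lower in that fit, beside 0.443% and 1.93%. There 18 (39.1%) had an unadjusted limma p below 0.05, beside 18.7% of all genes. The 6 lower genes were Slco1b2, Slco1a1, Abcb11, Abcb4, Abcg5 and Abcg8. Slco1a1, Abcg5 and Abcg8 are in these counts although only their lenvatinib level carried them over the filter. Their part in the counts that involve lenvatinib is therefore no support for a difference. Leaving out Control library 1 raised the genes lower with lenvatinib than in Control from 4 to 11, beside 17.4% of all genes. Those higher with nanocluster than with lenvatinib rose from 8 to 14, beside 27.5%. Control libraries bear on the calls between the treated groups only through the pooled spread and leave the size of those differences unchanged.

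**Figure D1:**
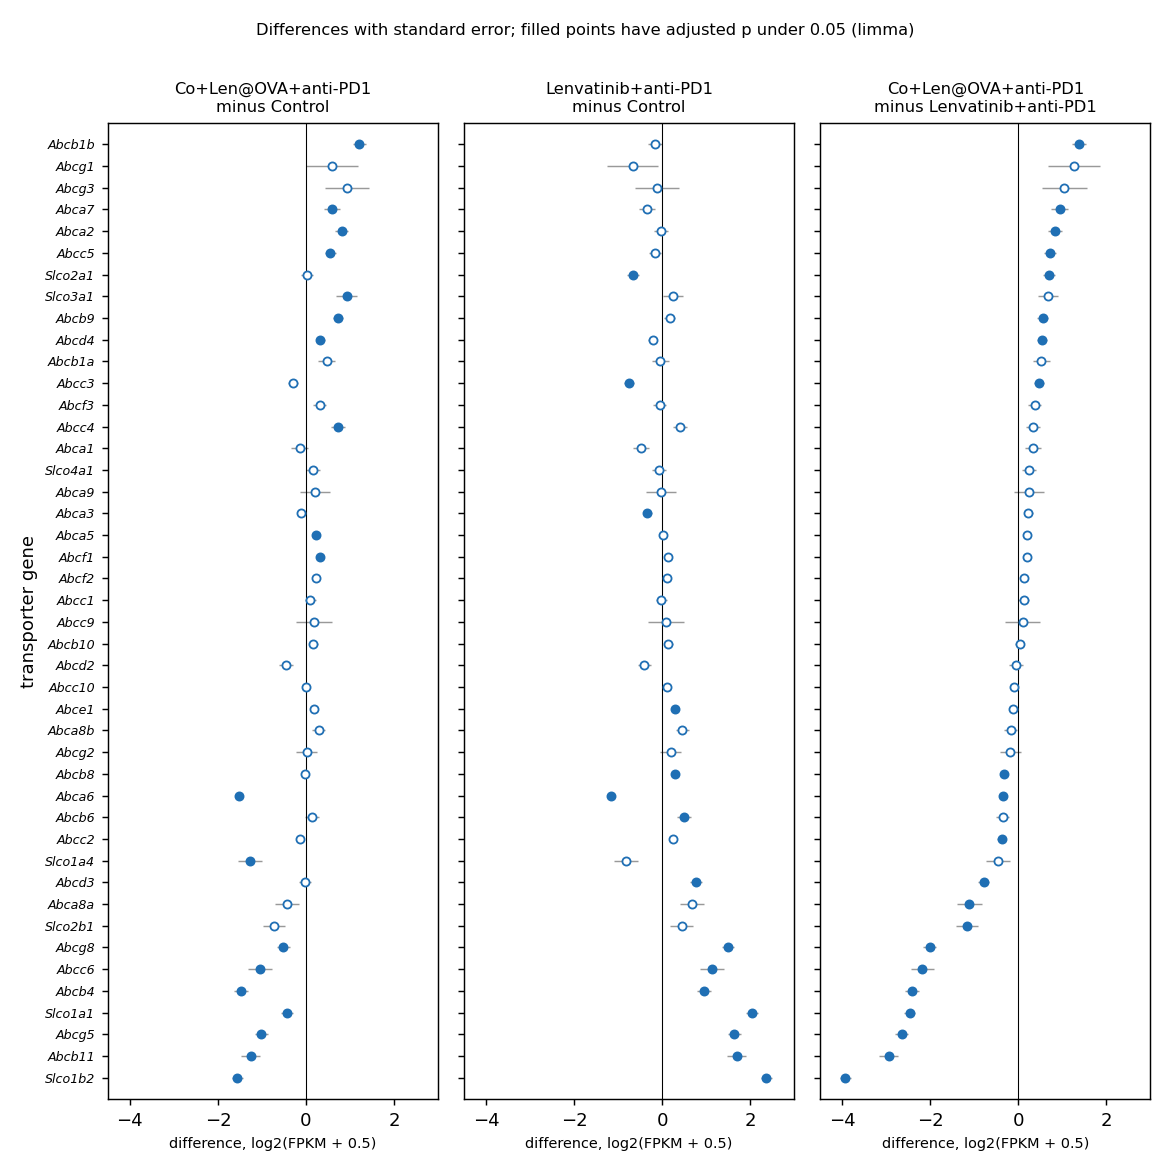
Differences in log2(FPKM + 0.5) for the tested transporter genes reported by name in the 3 comparisons, with standard errors, ordered by the difference between the treated groups; filled points have a limma adjusted p below 0.05. Slco1a1 and several canalicular exporters lie far below 0 between the treated groups, with Slco1b2 at -3.93, while most other genes lie near 0.

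Sinusoidal carriers and canalicular exporters were among the genes that set the treated groups furthest apart. The promoters of 4 of these carriers and exporters are shown so that their sequence can be set beside the levels. Windows of 300 bases, from 250 before to 50 after a RefSeq transcription start (mouse build GRCm38.p6), were found for 47 of the 61 genes. In the windows of Slco1b2 (chr6:141629268-141629567, plus strand), Slco1a1 (chr6:141946913-141947212, minus strand) and Abcb11 (chr2:69342567-69342866, minus strand), capitals mark AGGTCA, the half-site of many nuclear receptors, its reverse complement TGACCT, and GTTAAT, a half-site of the liver factor HNF1. In the window of Abcg5 (chr17:84682962-84683261, minus strand), capitals mark the stretch from the Abcg8 start to the Abcg5 start, since these neighbours are transcribed away from each other on opposite strands with 110 bases between their starts.
Slco1b2: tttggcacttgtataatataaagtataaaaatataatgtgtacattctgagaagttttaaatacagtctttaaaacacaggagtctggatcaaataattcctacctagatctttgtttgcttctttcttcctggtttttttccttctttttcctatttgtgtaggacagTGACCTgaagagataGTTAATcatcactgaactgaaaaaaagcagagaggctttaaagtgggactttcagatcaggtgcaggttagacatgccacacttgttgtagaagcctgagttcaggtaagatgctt
Slco1a1: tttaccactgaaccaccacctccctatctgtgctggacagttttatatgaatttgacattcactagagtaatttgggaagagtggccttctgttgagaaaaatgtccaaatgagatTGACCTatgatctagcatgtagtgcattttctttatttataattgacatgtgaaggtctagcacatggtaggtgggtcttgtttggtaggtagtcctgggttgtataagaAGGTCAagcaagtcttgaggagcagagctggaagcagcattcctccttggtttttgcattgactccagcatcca
Abcb11: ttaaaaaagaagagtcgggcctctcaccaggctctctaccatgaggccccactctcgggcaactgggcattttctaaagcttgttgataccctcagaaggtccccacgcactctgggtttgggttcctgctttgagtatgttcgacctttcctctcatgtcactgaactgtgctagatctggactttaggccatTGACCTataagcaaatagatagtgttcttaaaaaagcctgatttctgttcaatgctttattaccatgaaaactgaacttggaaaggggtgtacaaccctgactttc
Abcg5: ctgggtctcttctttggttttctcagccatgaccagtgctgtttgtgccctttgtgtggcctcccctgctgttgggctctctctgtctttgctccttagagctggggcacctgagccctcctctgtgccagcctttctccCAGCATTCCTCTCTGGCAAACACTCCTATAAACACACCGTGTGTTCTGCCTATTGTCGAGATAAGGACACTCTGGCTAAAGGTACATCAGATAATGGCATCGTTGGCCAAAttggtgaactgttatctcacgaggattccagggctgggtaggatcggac
Counting from -1 at the base before the start, the Slco1b2 window held GTTAAT at -66 and the complement of AGGTCA at -81. The Slco1a1 window held the complement at -134 and AGGTCA at -24, and the Abcb11 window held the complement at -56. Searched on both strands, AGGTCA occurred in 3 of the 6 windows of Slco1b2, Slco1a1, Abcb11, Abcb4, Abcg5 and Abcg8 and in 16.3% of 32851 promoter windows of all genes. Over all 58 windows of the transporter genes the share was 17.2%, near that of all genes. The 6 genes were chosen with their levels known, so their share is a description. GTTAAT occurred in 1 of the 6 and in 7.1% of all windows. The 6 windows held no match to CAAAGTCCA, a core for HNF4 (0.475% of all windows), or to TGACNNNGC, the core of the antioxidant response element (12.4%). These are matches of letters and not measured binding sites.

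The sinusoidal uptake carriers were higher with lenvatinib than in Control for 2 of 4 genes and lower with nanocluster than in Control for 3 of 4, and 3 of 4 were lower with nanocluster than with lenvatinib, beside 13.8%, 12.7% and 12.0% of all genes. Slco1a1 is among them in each case. Slco1b2, the mouse liver OATP carrier for bile acids, bilirubin conjugates and statins, stood at 1.79, 1.87 and 2.13 FPKM in Control, at 11.6, 12.2 and 12.2 FPKM with lenvatinib, and at 0.183, 0.391 and 0.401 FPKM with nanocluster. The 3 groups did not overlap, and every lenvatinib library was high and every nanocluster library low. Its mean level was 6.23-fold higher with lenvatinib and 5.92-fold lower with nanocluster than in Control, with log2 differences of 2.37 ± 0.12 (SE; limma adjusted p = 3.29e-05) and -1.56 ± 0.12 (adjusted p = 0.000178). Between the treated groups the difference was -3.93 ± 0.12 (adjusted p = 1.34e-06), and with libraries 1 and 2 alone the adjusted p was 0.00442, against 0.0307 and 0.0533 for the comparisons with Control.

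Slco1a1, an OATP carrier of liver and kidney for steroid and bile acid conjugates, stood at 0.288, 0.298 and 0.300 FPKM in Control, at 2.59, 2.58 and 3.17 FPKM with lenvatinib, and at 0.0815, 0.0946 and 0.0977 FPKM with nanocluster. The groups did not overlap, and its mean passed the level filter through the lenvatinib group alone, so its differences from that group are given as a description: 2.04 ± 0.13 (SE) on the log2 scale with lenvatinib against Control and -2.47 ± 0.13 with nanocluster against lenvatinib. Its nanocluster difference from Control, -0.43 ± 0.13 (limma adjusted p = 0.0358), was lost when any library other than Control library 1 was left out, with adjusted p from 0.0513 without nanocluster library 2 to 0.0916 without nanocluster library 3. Slco1a4, which carries digoxin and organic anions in liver and at the blood-brain barrier, took another course: 3.05, 1.19 and 2.01 FPKM in Control, 0.871, 0.954 and 0.891 FPKM with lenvatinib, and 0.816, 0.369 and 0.417 FPKM with nanocluster. Control libraries were high, and it fell with nanocluster by 1.28 on the log2 scale (log2 difference -1.28 ± 0.27, SE; limma adjusted p = 0.00987). The lenvatinib difference from Control was -0.81 (adjusted p = 0.0643, and 0.0169 without Control library 2), and the treated groups differed by -0.47 (adjusted p = 0.217). Slco2b1, a carrier of steroid sulphates found in liver and many other tissues, stood at 1.08, 1.93 and 1.65 FPKM in Control, at 2.07, 2.44 and 2.23 FPKM with lenvatinib, and at 1.14, 0.353 and 0.783 FPKM with nanocluster. Lenvatinib libraries were high, and nanocluster was lower than lenvatinib by -1.17 ± 0.25 (SE; limma adjusted p = 0.011); against Control the nanocluster difference was -0.74 (adjusted p = 0.054, 0.0268 without nanocluster library 1, 0.0313 without Control library 1, and 0.0265 under median-of-ratios scaling).

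These carriers are genes of hepatocytes, and markers of mature hepatocytes moved in part with them. The 22 hepatocyte markers summed to 7314, 3123 and 4610 FPKM in Control, to 5099, 4928 and 5179 FPKM with lenvatinib, and to 949, 1262 and 1142 FPKM with nanocluster. The sum was 4.49-fold lower with nanocluster than in Control, and 22 of 22 markers were called lower, beside 12.7% of all genes. With lenvatinib the mean sum was 1.01-fold that of Control, and the sum of the 4 uptake carriers was 3.06-fold higher. There 3 markers were called higher and 1 lower, beside 13.8% and 9.87% of all genes. Against lenvatinib, the nanocluster marker sum was 4.54-fold lower and the carrier sum 10.5-fold lower. The sums rest on a few abundant genes, and the median log2 difference of the 22 markers was -3.29 with nanocluster against Control, 0.46 with lenvatinib against Control and -4.01 between the treated groups. For the 4 carriers those medians were -1.01, 1.24 and -1.82, on a scale that understates the change of low genes. The last 2 rest in part on Slco1a1, which passed the level filter through the lenvatinib group alone, so they are given as a description. Genes as low as these carriers cannot fall as far on this scale as abundant markers, so the medians do not show which set fell more. Against Control, the carrier sum was 3.43-fold lower with nanocluster, beside 4.49-fold for the marker sum. The markers were also higher at their median with lenvatinib. Within Control the marker sum was highest in library 1 and lowest in library 2. Of the 4 carriers, Slco1a4 had that order, at 3.05, 1.19 and 2.01 FPKM. Slco1b2, which ran from 1.79 to 2.13 FPKM, Slco1a1 and Slco2b1 did not. Among the canalicular exporters, Abcb11 (1.52, 0.580 and 0.857 FPKM), Abcb4, Abcg5, Abcg8 and Abcb1b had the marker order in Control. Abcc2, Abcg2 and Abcb1a did not. In pieces of whole tumour, fewer cells of a type and less RNA per cell cannot be told apart, and the part of hepatocyte content in these differences was not tested.

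**Figure D2:**
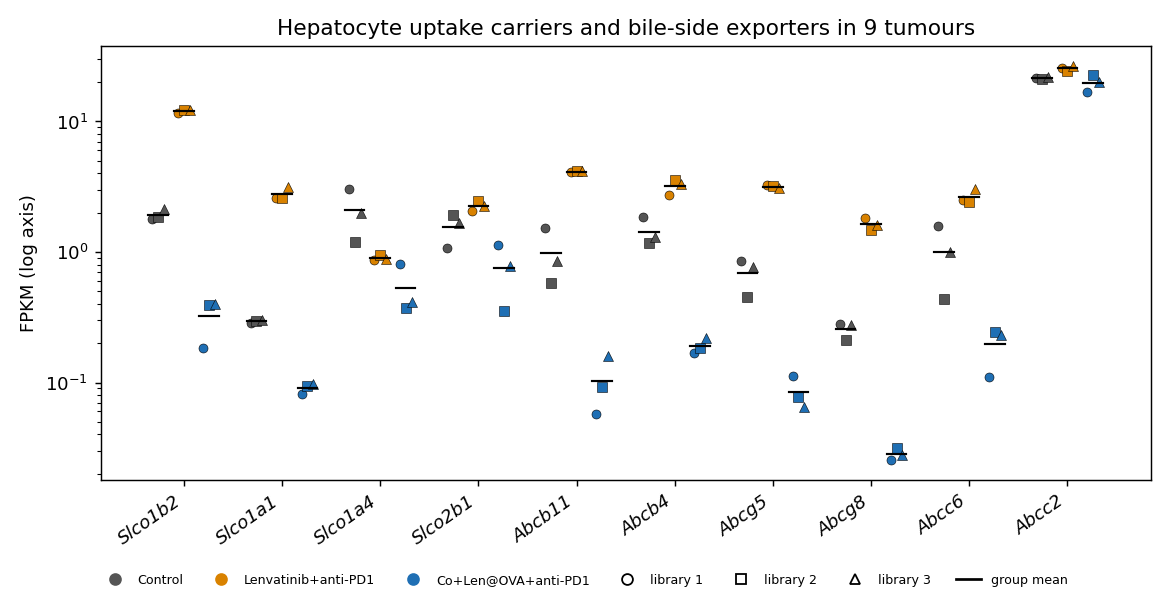
Levels in FPKM (log axis) of sinusoidal carriers, canalicular exporters and Abcc6 of the ABCC branch in each of the 9 libraries, with the group means as lines. Slco1b2, Slco1a1, Abcb11, Abcg5 and Abcg8 are high in all 3 lenvatinib libraries and low in all 3 nanocluster libraries, while Abcc2 lies between 16.7 and 26.8 FPKM throughout.

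The 8 canalicular exporters fell with nanocluster against Control for 4 genes and rose for 1, rose with lenvatinib for 4, and between the treated groups were lower with nanocluster for 5 and higher for 1. The shares of all genes were 12.7% lower and 20.9% higher with nanocluster and 13.8% higher with lenvatinib. Between the treated groups they were 12.0% lower and 17.3% higher. Abcg5 and Abcg8, which the filter kept for their lenvatinib level, are among the genes that rose with lenvatinib and the lower ones. Abcb11, the bile salt export pump, stood at 1.52, 0.580 and 0.857 FPKM in Control, at 4.10, 4.14 and 4.14 FPKM with lenvatinib, and at 0.0574, 0.0919 and 0.160 FPKM with nanocluster. The groups did not overlap, and its mean was 40.0-fold lower with nanocluster than with lenvatinib. Its log2 differences were 1.69 ± 0.21 (SE; limma adjusted p = 0.00151) with lenvatinib and -1.25 ± 0.21 (adjusted p = 0.00401) with nanocluster against Control, and -2.94 ± 0.21 (adjusted p = 6.22e-05; 0.0242 with libraries 1 and 2 alone) between the treated groups.

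Abcg5 and Abcg8 encode partner subunits of 1 pump that sends cholesterol and plant sterols into bile. Abcg5 stood at 0.860, 0.450 and 0.764 FPKM in Control, at 3.25, 3.18 and 3.07 FPKM with lenvatinib, and at 0.111, 0.0774 and 0.0651 FPKM with nanocluster. Abcg8 stood at 0.281, 0.212 and 0.274 FPKM in Control, at 1.84, 1.46 and 1.62 FPKM with lenvatinib, and at 0.0255, 0.0317 and 0.0279 FPKM with nanocluster. In both genes the groups did not overlap and lenvatinib was highest, and Abcg8 passed the level filter through the lenvatinib group alone. With lenvatinib, Abcg5 rose by 1.64 on the log2 scale (limma adjusted p = 0.000411), and with nanocluster against lenvatinib its difference was -2.65 (adjusted p = 2.15e-05, and 0.0192 with libraries 1 and 2 alone). For Abcg8 the same differences, 1.5 and -2.01, are given as a description, since the filter kept it for its lenvatinib level. Against Control, Abcg5 fell with nanocluster by 1.01 (log2 difference -1.01; adjusted p = 0.00258). The Abcg8 difference of -0.51 (adjusted p = 0.027) was lost without nanocluster library 1 (0.0521) or 3 (0.0815), lenvatinib library 3 (0.0588) or Control library 1 (0.0508) or 3 (0.0776).

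Abcc2, the canalicular pump for bilirubin glucuronides and other conjugates, was the most abundant of these exporters at 21.6, 21.3 and 22.0 FPKM in Control, 25.8, 24.6 and 26.8 FPKM with lenvatinib, and 16.7, 22.7 and 19.9 FPKM with nanocluster. Nanocluster overlapped Control and lay below lenvatinib, by -0.38 ± 0.10 (SE; limma adjusted p = 0.0249). That call was lost without nanocluster library 3 (adjusted p = 0.0713) or lenvatinib library 1 (0.0699) or 3 (0.0875), and the lenvatinib difference from Control, 0.25 (adjusted p = 0.113), passed without nanocluster library 1 (0.0343). Abcg2, an exporter of urate, porphyrins and drugs, stood at 0.587, 1.42 and 1.23 FPKM in Control, 1.05, 1.56 and 1.19 FPKM with lenvatinib and 1.33, 0.823 and 1.03 FPKM with nanocluster; the groups overlapped, and its smallest adjusted p was 0.585.

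Abcb1a, Abcb1b and Abcb4 follow one another on chromosome 5 and went different ways. Abcb4, which moves phosphatidylcholine into bile, stood at 1.84, 1.17 and 1.29 FPKM in Control, at 2.75, 3.57 and 3.31 FPKM with lenvatinib, and at 0.169, 0.185 and 0.220 FPKM with nanocluster. Every nanocluster library was low, and the log2 differences were -1.47 ± 0.16 (SE; limma adjusted p = 0.000569) with nanocluster and 0.95 ± 0.16 (adjusted p = 0.00447) with lenvatinib against Control, and -2.42 ± 0.16 (adjusted p = 3.33e-05) between the treated groups. Abcb1b, 1 of the 2 mouse P-glycoproteins that pump many drugs out of cells, stood at 1.38, 1.19 and 1.37 FPKM in Control, at 0.945, 1.13 and 1.27 FPKM with lenvatinib, and at 2.92, 4.58 and 3.76 FPKM with nanocluster. Nanocluster libraries were high and overlapped neither group, and Abcb1b rose by 1.21 ± 0.16 (SE) against Control (limma adjusted p = 0.00129) and by 1.38 ± 0.16 against lenvatinib (adjusted p = 0.00056). With libraries 1 and 2 alone those adjusted p were 0.101 and 0.0618. Abcb1a, the other P-glycoprotein, stood at 4.54, 4.88 and 5.13 FPKM in Control, at 4.67, 4.35 and 5.07 FPKM with lenvatinib, and at 4.99, 9.49 and 6.96 FPKM with nanocluster. Nanocluster library 1 lay within the Control range and the other 2 above it; the difference of 0.47 from Control (adjusted p = 0.0874) and that of 0.52 from lenvatinib (adjusted p = 0.0727) passed without that library (0.0117 and 0.0103). Abcb1a and Abcb1b are close paralogs, and how reads matching both were assigned is not given in the sources used here.

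**Figure D3:**
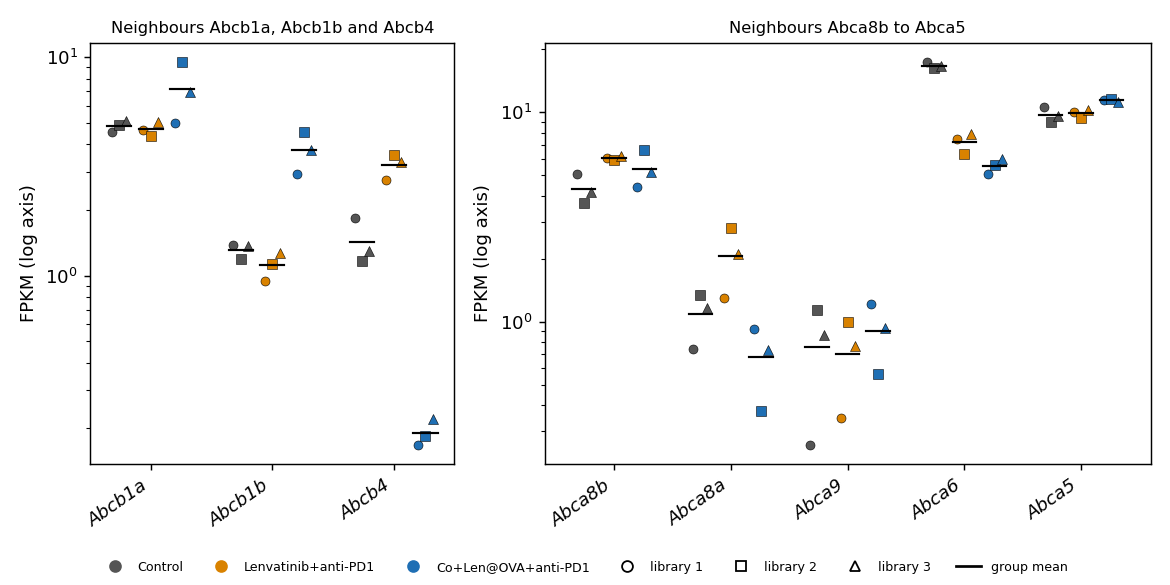
Levels in FPKM (log axis) of transporter genes that neighbour each other, in each of the 9 libraries, at the Abcb1a, Abcb1b and Abcb4 locus and at the Abca8b to Abca5 locus. Abcb4 is lowest and Abcb1b highest in the nanocluster libraries, and Abca6 is highest in Control.

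Among the conjugate and nucleotide exporters of the ABCC branch, 6 of 7 genes were tested. With nanocluster against Control 2 were higher and 1 lower, beside 20.9% and 12.7% of all genes. With lenvatinib against Control 1 was higher and 1 lower, beside 13.8% and 9.87%. Between the treated groups 2 were higher and 1 lower with nanocluster, beside 17.3% and 12.0%. With so few genes these counts are read as a description. Abcc6, which releases ATP from hepatocytes, stood at 1.58, 0.439 and 1.00 FPKM in Control, at 2.48, 2.40 and 3.06 FPKM with lenvatinib, and at 0.110, 0.244 and 0.233 FPKM with nanocluster. It was highest with lenvatinib and lowest with nanocluster without overlap, by -2.18 ± 0.27 (SE) between the treated groups (limma adjusted p = 0.00086). Its difference of -1.05 from Control with nanocluster (adjusted p = 0.0205) was lost without nanocluster library 1 (0.0603) or 3 (0.0552) or Control library 3 (0.0619). Its difference of 1.13 with lenvatinib (adjusted p = 0.0193) was lost without lenvatinib library 3 (0.0769) or Control library 3 (0.0548). Abcc3, a basolateral exporter that returns conjugates to blood, stood at 18.3, 20.2 and 20.0 FPKM in Control, at 11.3, 10.9 and 11.9 FPKM with lenvatinib, and at 13.1, 18.5 and 16.3 FPKM with nanocluster. Lenvatinib libraries were the lowest, and Abcc3 fell there by 0.75 (log2 difference -0.75 ± 0.11, SE; limma adjusted p = 0.00321). The nanocluster difference from lenvatinib, 0.46 (adjusted p = 0.0196), was lost without nanocluster library 3 (0.071) or lenvatinib library 1 (0.058), 2 (0.0609) or 3 (0.0501), and under both scalings (0.053 and 0.0854). Against Control the nanocluster difference of -0.29 (adjusted p = 0.0819) passed without nanocluster library 2 (0.0252) and under both scalings (0.0249 and 0.0272).

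Abcc4, a basolateral exporter of cyclic nucleotides and bile acids, stood at 3.21, 4.42 and 3.83 FPKM in Control, at 5.04, 5.36 and 5.10 FPKM with lenvatinib, and at 5.17, 7.52 and 7.42 FPKM with nanocluster. Control libraries were the lowest, and Abcc4 rose with nanocluster by 0.73 ± 0.15 (SE; limma adjusted p = 0.00943). Its lenvatinib difference of 0.40 from Control (adjusted p = 0.0939) and the nanocluster difference of 0.33 from lenvatinib (adjusted p = 0.134) passed without nanocluster library 1 (0.0358 and 0.029). Abcc5, an exporter of nucleotide analogues, stood at 5.25, 7.90 and 7.61 FPKM in Control, at 5.96, 6.24 and 6.02 FPKM with lenvatinib, and at 9.70, 10.6 and 10.4 FPKM with nanocluster. Nanocluster libraries were high, by 0.56 ± 0.14 (SE) over Control (limma adjusted p = 0.0168, 0.0587 without nanocluster library 3) and by 0.71 ± 0.14 over lenvatinib (adjusted p = 0.00688). Without Control library 1 its lenvatinib difference from Control was -0.33 (adjusted p = 0.00617), against -0.15 (0.447) with it. Abcc1 and Abcc10, exporters of conjugates and lipophilic anions, had overlapping or close levels in all groups, with smallest adjusted p of 0.504 and 0.43.

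Among the cholesterol exporters, the adjusted p-values of Abcg1 and Abca1 depended on Control library 1. The size of their difference between the treated groups did not, since it uses no Control library. Abcg1, which moves cholesterol to lipoproteins and is prominent in macrophages, stood at 1.37, 11.6 and 7.66 FPKM in Control, at 3.00, 3.15 and 3.07 FPKM with lenvatinib, and at 9.57, 6.90 and 8.08 FPKM with nanocluster. Control library 1 was low and the other 2 high, and no comparison was called (smallest limma adjusted p = 0.132). Without that library, Abcg1 was lower with lenvatinib than in Control by -1.48 (adjusted p = 0.00132) and higher with nanocluster than with lenvatinib by 1.27 (adjusted p = 0.00084). Abca1, which loads cholesterol onto apolipoprotein A1, stood at 7.19, 12.6 and 10.4 FPKM in Control, at 6.37, 7.18 and 7.26 FPKM with lenvatinib, and at 10.1, 7.79 and 8.72 FPKM with nanocluster. The nanocluster difference from lenvatinib was 0.33 (limma adjusted p = 0.205, and 0.0508 without Control library 1), and the lenvatinib difference of -0.47 from Control (adjusted p = 0.1) became -0.69 without Control library 1 (adjusted p = 0.00627) and passed under both scalings (0.0394 and 0.0182). Abca7, a lipid exporter of phagocytes and other cells, stood at 1.82, 3.36 and 3.05 FPKM in Control, at 1.81, 2.16 and 2.03 FPKM with lenvatinib, and at 4.69, 3.78 and 4.39 FPKM with nanocluster. Nanocluster libraries were high, by 0.94 ± 0.19 (SE) over lenvatinib (limma adjusted p = 0.00837). The 0.59 difference from Control (adjusted p = 0.0421) was lost in every fit that left out 1 library except those without Control library 1 or 2 (adjusted p from 0.0536 without nanocluster library 2 to 0.116 without nanocluster library 3), and under both scalings (0.0547 and 0.0592). The lenvatinib difference of -0.34 from Control (adjusted p = 0.216) passed without Control library 1 (0.00744).

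Abcg3, a rodent gene close to Abcg2 whose substrate is not settled, stood at 0.484, 4.54 and 2.85 FPKM in Control, at 1.77, 1.90 and 1.90 FPKM with lenvatinib, and at 4.06, 4.41 and 4.62 FPKM with nanocluster. As with Abcg1, Control library 1 was low, and no comparison was called (smallest limma adjusted p = 0.147). Without Control library 1, Abcg3 was lower with lenvatinib by -0.80 (adjusted p = 0.00902) and higher with nanocluster than with lenvatinib by 1.04 (adjusted p = 0.00121), and without Control library 2 its nanocluster difference from Control was 1.42 (adjusted p = 0.0407). The 12 macrophage markers summed to 341.5, 1404 and 1068 FPKM in Control, to 486.6, 580.7 and 534.6 FPKM with lenvatinib, and to 2235, 1902 and 2086 FPKM with nanocluster. Macrophage markers were thus lowest in the Control library where Abcg1 and Abcg3 were lowest, and 7 of 12 were called higher with nanocluster than with lenvatinib, beside 17.3% of all genes. The T cell, endothelial, fibroblast and erythroid sums were also lowest in that Control library. The part of macrophage content in these levels was not tested.

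**Figure D4:**
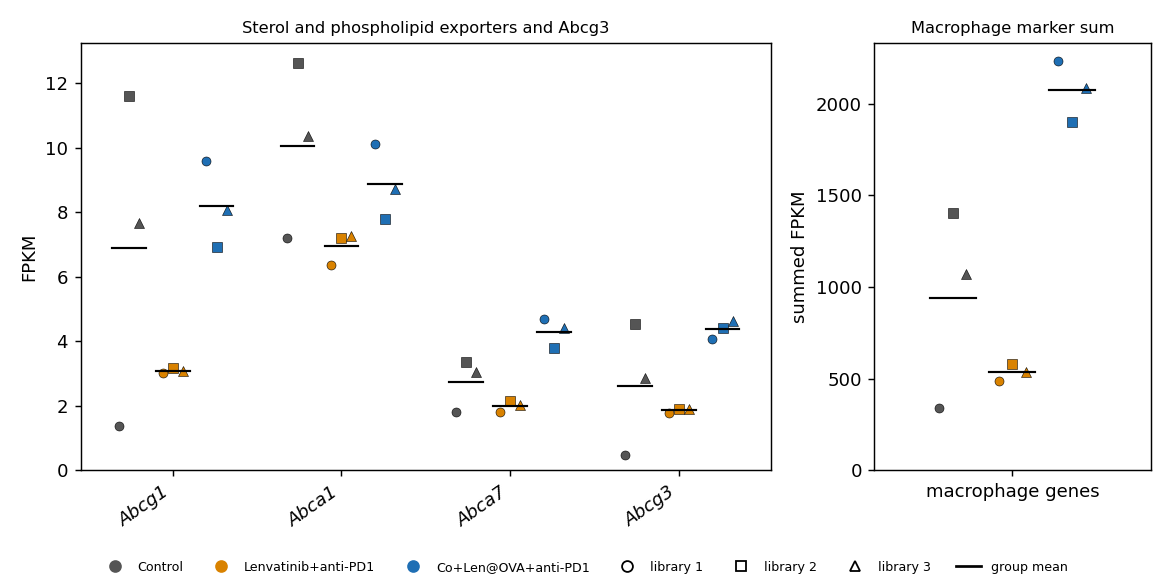
Levels in FPKM (axis from 0) of Abcg1, Abca1, Abca7 and Abcg3 and the summed macrophage markers in each of the 9 libraries. In Control, library 1 lies lowest for each of them, and the macrophage sum runs from 341.5 to 2235 FPKM.

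Abca6 is a lipid transporter of liver whose substrate is not settled, and it changed most among the other ABCA genes. It stood at 17.3, 16.2 and 16.7 FPKM in Control, at 7.47, 6.35 and 7.87 FPKM with lenvatinib, and at 5.08, 5.63 and 5.98 FPKM with nanocluster. Control libraries were high and did not overlap the others: Abca6 fell by 1.51 with nanocluster (log2 difference -1.51 ± 0.09, SE; limma adjusted p = 6.04e-05) and by 1.16 with lenvatinib (-1.16 ± 0.09; adjusted p = 0.000212). With libraries 1 and 2 alone, the first was called (adjusted p = 0.0347) and the second was not (0.0513). The difference of -0.35 between the treated groups (adjusted p = 0.0245) was lost without nanocluster library 1 (0.0742) or lenvatinib library 1 (0.0805) or 3 (0.0906). On chromosome 11 Abca6 lies between Abca9 and Abca5, in a row that begins with Abca8b and Abca8a. Abca5, an endosomal and lysosomal lipid transporter, stood at 10.6, 8.97 and 9.64 FPKM in Control, 10, 9.37 and 10.3 FPKM with lenvatinib and 11.5, 11.5 and 11.2 FPKM with nanocluster. Its difference of 0.22 from Control (adjusted p = 0.0459) was kept only without Control library 1 among the fits leaving out 1 library (adjusted p from 0.0574 without lenvatinib library 2 to 0.112 without Control library 3 in the others), and was 0.591 and 0.937 under the scalings. Abca8a, a transporter of cholesterol and organic anions, stood at 0.743, 1.34 and 1.16 FPKM in Control, 1.30, 2.79 and 2.10 FPKM with lenvatinib and 0.922, 0.373 and 0.735 FPKM with nanocluster. It was lower with nanocluster than with lenvatinib by -1.11 (limma adjusted p = 0.0198), a call lost without nanocluster library 2 (0.0507) or 3 (0.0553) or lenvatinib library 2 (0.0621) or 3 (0.0682). Abca8b ran from 3.68 to 6.58 FPKM and was not called (smallest adjusted p = 0.0587, 0.0219 without Control library 1, 0.0408 without nanocluster library 1 and 0.032 without nanocluster library 2). Abca9 ran from 0.258 to 1.21 FPKM and was not called (smallest adjusted p = 0.624).

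Abca2, a lipid transporter of lysosomes, stood at 2.91, 4.01 and 3.54 FPKM in Control, at 3.04, 3.68 and 3.53 FPKM with lenvatinib, and at 7.88, 5.38 and 6.26 FPKM with nanocluster. Nanocluster libraries were high, by 0.81 ± 0.15 (SE) over Control (limma adjusted p = 0.00639) and 0.83 ± 0.15 over lenvatinib (adjusted p = 0.00613), and within that group the neural sum, like several other marker sums, was highest in the same library as Abca2, which neurons and oligodendrocytes express. Whether neural RNA took part was not tested. Abca3, a phospholipid transporter best known from the lung, stood at 7.55, 9.74 and 9.37 FPKM in Control, 6.95, 6.72 and 6.96 FPKM with lenvatinib and 7.49, 8.75 and 8.19 FPKM with nanocluster. Its lenvatinib difference of -0.34 (limma adjusted p = 0.0432) was lost without nanocluster library 3 (0.0754), any lenvatinib library (0.0939, 0.117 and 0.11 for 1 to 3) or Control library 2 (0.106) or 3 (0.136). Its nanocluster difference of -0.11 from Control (adjusted p = 0.403) passed under both scalings (0.0484 and 0.0364), and the treated groups differed without Control library 1 (0.23, adjusted p = 0.0249).

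Abcd3 carries branched and long-chain acyl groups into peroxisomes and was the only peroxisomal or lysosomal ABCD gene called with lenvatinib against Control. It stood at 3.90, 5.47 and 4.77 FPKM in Control, at 7.72, 8.88 and 8.53 FPKM with lenvatinib, and at 5.30, 4.00 and 4.66 FPKM with nanocluster. Lenvatinib libraries were high, by 0.78 ± 0.13 (SE) over Control (limma adjusted p = 0.00544) and with nanocluster lower by -0.79 ± 0.13 (adjusted p = 0.00408), while nanocluster overlapped Control. Abcd4, which helps cobalamin leave lysosomes, stood at 1.28, 1.08 and 1.05 FPKM in Control, 0.923, 0.933 and 0.866 FPKM with lenvatinib and 1.47, 1.62 and 1.54 FPKM with nanocluster. Nanocluster was higher than lenvatinib by 0.54 ± 0.10 (SE; limma adjusted p = 0.00736), and its 0.32 over Control (adjusted p = 0.0452) was kept only without Control library 1 among the fits leaving out 1 library (others 0.0658 without lenvatinib library 2 to 0.131 without Control library 3) and was lost under both scalings (0.209 and 0.374). Abcd2, a carrier of very long-chain fatty acids, had no call: its difference from Control was -0.45 with nanocluster (limma adjusted p = 0.0584) and -0.40 with lenvatinib (adjusted p = 0.103); both passed without Control library 1 (0.00484 and 0.00613) and under both scalings (0.00919 and 0.00359 with nanocluster, 0.033 and 0.0126 with lenvatinib).

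Mitochondrial ABCB genes differed by at most 0.50 on the log2 scale. Abcb8, which is linked to mitochondrial iron export, stood at 4.87, 5.10 and 4.52 FPKM in Control, 5.68, 6.40 and 6.01 FPKM with lenvatinib and 4.74, 4.44 and 4.95 FPKM with nanocluster. Lenvatinib was above both groups, by 0.29 over Control (adjusted p = 0.0285; lost without nanocluster library 3 at 0.0506, lenvatinib library 2 at 0.0991 or 3 at 0.0904, Control library 3 at 0.104, and under both scalings at 0.0582 and 0.157). The nanocluster difference from lenvatinib was -0.33 (adjusted p = 0.0167; lost without lenvatinib library 2 at 0.0602 or 3 at 0.0594). Abcb6, which carries porphyrins, ran from 4.15 to 8.64 FPKM and was higher with lenvatinib than Control by 0.50 (adjusted p = 0.049). That call was lost in every fit leaving out 1 library except without nanocluster library 2 and Control library 2 (adjusted p from 0.0547 without Control library 1 to 0.158 without lenvatinib library 3), and under upper quartile scaling (0.0642). Its difference between the treated groups, -0.36 (adjusted p = 0.109), passed without Control library 1 (0.0224) and under both scalings (0.0351 and 0.0377). Abcb10, an inner-membrane exporter involved in haem synthesis, had no call (smallest adjusted p = 0.248).

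Abcb9, which moves peptides into lysosomes and resembles the peptide pumps of antigen presentation, stood at 2.23, 1.5 and 1.89 FPKM in Control, at 2.20, 2.25 and 2.01 FPKM with lenvatinib, and at 3.22, 3.45 and 3.51 FPKM with nanocluster. Nanocluster libraries were high, by 0.73 ± 0.12 (SE) over Control (limma adjusted p = 0.00381) and 0.56 ± 0.12 over lenvatinib (adjusted p = 0.0122, 0.0529 without nanocluster library 3, 0.0517 without lenvatinib library 3 and 0.063 under upper quartile scaling). The ABC genes that carry another name include Tap1 and Tap2, the pump that feeds peptides to MHC class I molecules. Tap1 stood at 52.5 ± 5.26 FPKM in Control, 68.5 ± 3.11 FPKM with lenvatinib and 96.6 ± 2.44 FPKM with nanocluster, and Tap2 at 13.2 ± 4.02, 16.7 ± 0.316 and 32.9 ± 0.188 FPKM (SD, n = 3 throughout). Nanocluster was above both groups for both genes, with log2 differences from Control of 0.88 for Tap1 (limma adjusted p = 0.000321) and 1.33 for Tap2 (adjusted p = 0.00217). With lenvatinib Tap1 was higher than in Control by 0.39 (adjusted p = 0.0116), and the Tap2 difference of 0.37 was not called (adjusted p = 0.202).

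ABCE and ABCF proteins have no membrane domain and act in translation and ribosome recycling. Abcf1 was the most abundant of the 61 genes at 26.8 FPKM over the 9 libraries, followed by Abcc2 at 22.4, Abce1 at 21.7 and Abcf2 at 21.5 FPKM. Abcf1 stood at 22.7, 24.6 and 24.5 FPKM in Control, 25.2, 27.7 and 26.2 FPKM with lenvatinib and 27.6, 33.2 and 29.9 FPKM with nanocluster, and its nanocluster difference of 0.33 from Control (limma adjusted p = 0.0148) was lost without nanocluster library 3 (0.0501) and under both scalings (0.127 and 0.395). Abce1 ran from 17.3 to 24.5 FPKM, and its lenvatinib difference of 0.29 (adjusted p = 0.0434) was kept only without nanocluster library 1 or 2 (others from 0.0542 without Control library 2 to 0.126 without lenvatinib library 3) and was lost under both scalings (0.0642 and 0.228). Abcf2 and Abcf3 had no call; the 2 smallest adjusted p were 0.0756 for Abcf2 (0.0493 without lenvatinib library 1) and 0.0875 for Abcf3 (0.00137 without Control library 1, with that for lenvatinib against Control 0.0171, and 0.0455 for nanocluster against Control without Control library 2).

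Slco2a1, the prostaglandin uptake carrier, was lower with lenvatinib than in both other groups. It stood at 4.4, 3.94 and 3.99 FPKM in Control, at 2.38, 2.30 and 2.53 FPKM with lenvatinib, and at 3.40, 5.17 and 4.18 FPKM with nanocluster. It fell by 0.66 with lenvatinib (log2 difference -0.66 ± 0.13, SE; limma adjusted p = 0.00966) and was higher with nanocluster than with lenvatinib by 0.69 ± 0.13 (adjusted p = 0.00686). Slco3a1, a widely expressed carrier of prostaglandins and thyroxine, stood at 0.448, 1.08 and 0.943 FPKM in Control, 0.773, 1.44 and 0.961 FPKM with lenvatinib and 2.31, 1.65 and 1.93 FPKM with nanocluster. Nanocluster was high, by 0.92 ± 0.24 (SE) over Control (limma adjusted p = 0.0201, lost without nanocluster library 1 at 0.0621 or 3 at 0.0622), and its 0.67 over lenvatinib (adjusted p = 0.0629) passed without lenvatinib library 2 (0.0491) or Control library 1 (0.0201). Slco4a1, a thyroid hormone carrier, ran from 0.565 to 1.01 FPKM and was not called (smallest adjusted p = 0.27).

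Low genes followed particular libraries. Abcc9, the sulphonylurea receptor of vascular smooth muscle and pericytes, stood at 0.372, 1.64 and 1.26 FPKM in Control, at 0.575, 1.80 and 1.10 FPKM with lenvatinib, and at 1.73, 0.739 and 1.24 FPKM with nanocluster. The order of the libraries within each group was that of the fibroblast and pericyte marker sum, which ran from 257.7 to 623.8 FPKM. The endothelial and macrophage sums had the same order, so it is not particular to pericyte markers. No Abcc9 difference was called (smallest limma adjusted p = 0.752). Abcg4, a sterol exporter of brain, was below the level filter at 0.0704, 0.157 and 0.196 FPKM in Control, 0.224, 0.251 and 0.214 FPKM with lenvatinib and 0.861, 0.182 and 0.603 FPKM with nanocluster. Slco1c1, a thyroxine carrier of the blood-brain barrier, stood at 0.507, 0.0115 and 0.333 FPKM with nanocluster and at most 0.0317 FPKM elsewhere. Abcc8, the sulphonylurea receptor of beta cells and neurons, stood at 0.168, 0.0108 and 0.123 FPKM with nanocluster and at most 0.0480 FPKM elsewhere. In all 3, nanocluster library 1 was highest, library 3 next and library 2 lowest, the order of the neural marker sum (102.4, 53.7 and 5.65 FPKM). The endothelial, neutrophil, adipocyte, T cell, macrophage and fibroblast sums had the same order in this group, so the order is not particular to neural markers. The part of neural RNA in these levels was not tested.

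**Figure D5:**
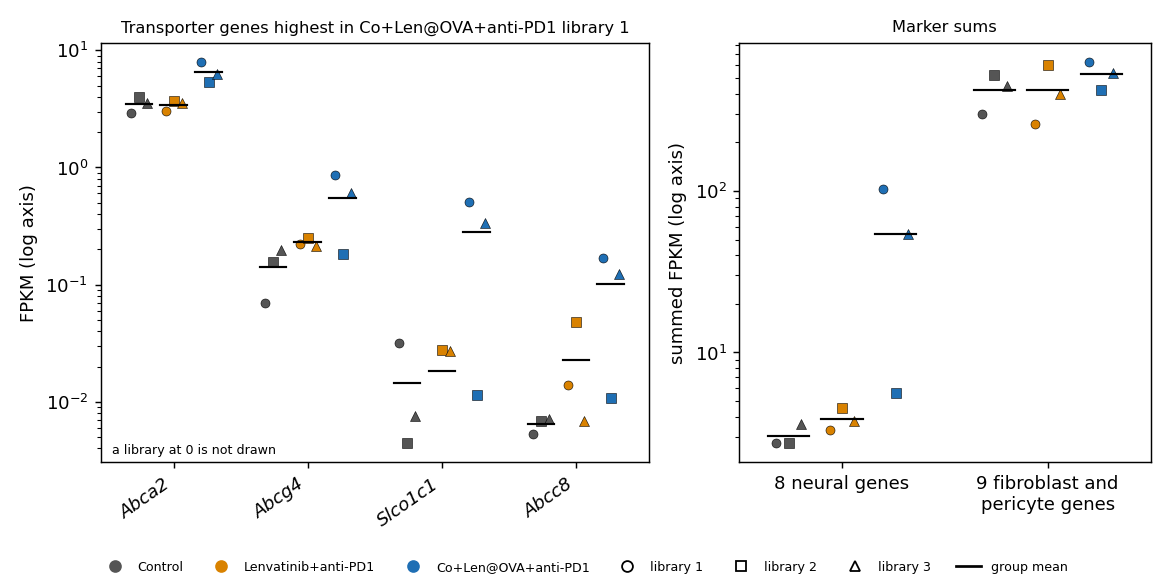
Levels in FPKM (log axis) of Abca2, Abcg4, Slco1c1 and Abcc8 in each of the 9 libraries (a library at 0 is not drawn), beside the summed neural and the summed fibroblast and pericyte markers. Nanocluster libraries 1 and 3 lie high for Abcg4, Slco1c1 and Abcc8 and for the neural sum.

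The pathway around the transporters was read from lists of other genes. Of 13 liver carriers for bile acids and organic ions, 6 were tested; 6 were lower with nanocluster than in Control, 3 higher and 1 lower with lenvatinib than in Control, and 4 lower with nanocluster than with lenvatinib, beside 12.7%, 13.8%, 9.87% and 12.0% of all genes. Slc10a1, the sodium-dependent bile acid carrier, stood at 14.6, 4.04 and 7.62 FPKM in Control, 13.8, 14.0 and 14.3 FPKM with lenvatinib and 0.461, 0.412 and 0.492 FPKM with nanocluster; the lenvatinib difference from Control, 0.82, was not called (adjusted p = 0.131), and the nanocluster difference was -3.11 (adjusted p = 0.000806).

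Of 16 nuclear receptors and liver factors that control transporter genes, 3 were higher and 7 lower with nanocluster than in Control, 3 and 2 with lenvatinib, and 2 and 7 with nanocluster against lenvatinib. Beside the shares of all genes (20.9% and 12.7%, 13.8% and 9.87%, 17.3% and 12.0%), the counts of higher genes and both lenvatinib counts lie near the background. Nr1h4, the bile acid receptor FXR that drives Abcb11, stood at 3.29, 2.45 and 3.24 FPKM in Control, at 6.68, 5.77 and 7.03 FPKM with lenvatinib, and at 0.592, 0.819 and 0.547 FPKM with nanocluster. The groups did not overlap, with log2 differences of 1.01 (limma adjusted p = 0.00231) with lenvatinib and -1.60 (adjusted p = 0.000276) with nanocluster against Control. Nr0b2, the FXR target SHP, stood at 0.516, 0.343 and 0.503 FPKM in Control and 3.27, 2.55 and 3.65 FPKM with lenvatinib. It was listed at 0 in nanocluster libraries 1 and 2 and at 0.0345 FPKM in library 3. Nr0b2 passed the level filter through the lenvatinib group alone, so any part it has in the counts that involve lenvatinib is no support for a difference. Nr1i2, the xenobiotic receptor PXR, was lower with nanocluster than in Control (-2.33, limma adjusted p = 0.000705) and was not called with lenvatinib (-0.03, adjusted p = 0.945). Hnf4a, named after its values were seen, ran from 25.2 to 29.2 FPKM and was called in no comparison (smallest adjusted p = 0.401).

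Among 12 NRF2 target enzymes 4 were higher and 1 lower with nanocluster than in Control, 4 and 2 with lenvatinib, and 2 and 3 between the treated groups, beside the same shares of all genes; with so few genes these counts are read as a description. Hmox1, haem oxygenase, stood at 43.6, 96.5 and 89.7 FPKM in Control, 43.8, 44.2 and 50.9 FPKM with lenvatinib and 441, 367 and 419 FPKM with nanocluster, a log2 difference of 2.49 (limma adjusted p = 0.00065) from Control. The erythroid and platelet marker sum was 5.19-fold higher and the macrophage sum 2.21-fold higher with nanocluster than in Control. Of the tested erythroid and platelet markers 7 of 8 were called higher, beside 20.9% of all genes. The part of erythroid, platelet and macrophage content in the Hmox1 level was not tested. Gclm rose and Gclc fell in both treated groups against Control, by 0.67 and -0.76 with nanocluster (adjusted p = 0.000201 and 0.000246) and by 0.57 and -0.65 with lenvatinib (adjusted p = 0.000444 and 0.000522); they are the modifier and catalytic subunits of glutathione synthesis. Of 10 LXR targets outside the transporters, 2 were higher and 1 lower with nanocluster than in Control, 1 higher with lenvatinib, and 3 higher and 2 lower between the treated groups, beside the same shares, and the counts against Control lie near them.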

How the data were processed

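RNA of 9 tumour libraries was read as 150-base pairs, per the series' design text. The deposited values are FPKM per gene (fragments scaled to transcript length and library size), as the authors' column names state, and the file holds no counts. Tools named in the submitters' processing notes are fastp, edgeR and StringTie, with no version; which aligner, build and annotation they used is not given in the sources used here. Low values of 11927 single-transcript genes were compared with whole fragments: at the best library total, 21.6% to 27.5% lay within 0.05 of a whole number, where 10% would by even spread, so counts and depth could not be recovered and depth is unknown. Those 15353 of 32761 genes whose 9-library mean reached 0.5 FPKM were tested with limma 3.58.1 in R 4.3.3 on log2(FPKM + 0.5), with trended and robust variance, 3 group means, 6 residual degrees of freedom, and Benjamini-Hochberg adjustment over all genes tested at 0.05; fold changes on this scale understate the change of low genes. The alternatives varied pseudocount, filter, scaling, samples in the fit, replicate block, variance model and libraries. The rule named every gene called, besides 17 hepatic transporters and, of each pathway list, up to 3 genes with the smallest adjusted p. Some genes that the rule names are counted but not reported by name here. The genes and lists were chosen with earlier results of these data known. Replicate numbers in the labels did not pair the libraries: same-numbered libraries correlated between -0.25 and 0.08 in their deviations from the group means.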

Additional observations from a re-analysis of the deposited data

How the results depend on the processing

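Of 56 calls (a transporter gene in a comparison), 0 reversed under the 20 alternatives and 35 held in every fit that left out 1 library. Higher calls with nanocluster against Control numbered 11, and 7 without a filter, 6 under either scaling, 6 with the 2 groups alone, 7 with the replicate block, 0 with libraries 1 and 2 alone, and 4 to 11 leaving out 1 library. The 9 lower calls became 2 with a filter at 2 FPKM, 1 with libraries 1 and 2, and 6 to 10 leaving out 1. With lenvatinib against Control, the 11 higher became 5 at 2 FPKM, 1 with libraries 1 and 2, and 7 to 13 leaving out 1, and the 4 lower became 0 with libraries 1 and 2 and 3 to 11 leaving out 1. With nanocluster against lenvatinib, the 8 higher became 15 with the 2 groups alone, 0 with libraries 1 and 2, and 6 to 14 leaving out 1, and the 13 lower became 5 at 2 FPKM, 6 with libraries 1 and 2, and 9 to 14 leaving out 1. The filter at 2 FPKM removes the low hepatic genes by construction. Leaving out Control libraries alters the calls between the treated groups only through the pooled spread. The cause of the other changes was not tested. The replicate block gave 7 higher and 7 lower, 8 and 3, and 8 and 13 in the 3 comparisons; the numbers do not pair the libraries, since same-numbered deviations correlated between -0.25 and 0.08. Depth is unknown, so values below 0.1 FPKM carry no interval.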
